A study of Oryctolagus cuniculus with 24 samples.

Results

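A set of 9 genes of calcium entry, calcineurin and NFAT was followed in rabbit peripheral blood mononuclear cells (PBMCs) cultured with LPS, with PMA-Ionomycin or without a stimulus (mock). The list was set by name: the transcription factors NFATC1, NFATC2 and NFATC3, the calcineurin subunits PPP3CA, PPP3CB and PPP3R1, the calcineurin inhibitor RCAN1, and STIM1 and ORAI1 of calcium entry. Of these 9 genes, 6 had at least 1 probe among the 28892 genes measured, and NFATC1, NFATC2 and ORAI1 were not found by name and were not analysed here. The PBMCs, a mixture of lymphocytes and monocytes, came by density gradient from the blood of 4 adult New Zealand White rabbits, all female, called rabbits 1, 2, 4 and 5 here. Each rabbit gave 1 culture for each of 6 groups: mock-stimulation with buffer alone, LPS at 1 µg/mL, or PMA at 10 ng/mL together with ionomycin at 1 µg/mL, each harvested at 4 h (T4) or 24 h (T24). Each of the 24 cultures had 1 one-colour array, so every group held 4 arrays of the same 4 rabbits, and the arrays lay on 3 slides of 8.

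In lymphocytes, ligation of the antigen receptor empties the calcium store of the endoplasmic reticulum, the store sensor STIM1 opens ORAI1 channels in the plasma membrane, and the calcium that enters binds calmodulin. Calmodulin switches on calcineurin, a phosphatase with a catalytic A subunit (PPP3CA, PPP3CB or PPP3CC) and a calcium-binding B subunit (PPP3R1), and calcineurin strips phosphate from NFAT proteins so that they enter the nucleus. Ionomycin carries calcium across membranes and so acts on this pathway without the receptor, whereas PMA activates protein kinase C and LPS acts through TLR4. PMA and ionomycin were given only together here, so the part of each in any change cannot be told apart. RCAN1 binds and inhibits calcineurin, and a promoter of RCAN1 is known to respond to NFAT.

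The probes behind the results are 60 bases long and are shown in the sense orientation of the array design, with positions on oryCun2 where the design gives one. RCAN1 and PPP3CA, the genes that were differentially expressed between PMA-Ionomycin and mock at T24, rested on 1 probe each. The RCAN1 probe has no position in the design.
RCAN1: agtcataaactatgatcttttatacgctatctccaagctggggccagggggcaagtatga
PPP3CA, chr15:48829661-48829720: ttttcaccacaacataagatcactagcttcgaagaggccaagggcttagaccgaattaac
The scanner output calls the second probe PPP3CC. The RefSeq accession given beside it belongs to PPP3CA in the current RefSeq gene table, and PPP3CC itself was measured by another probe.

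NFATC3 had 7 probes at 2 places of its transcript. Of these, 5 upstream probes were shifted against each other by single bases or a few bases, so they share most of their sequence and are no independent measurements. The outermost of them are shown with the 50 bases that all 5 share in capitals, followed by the downstream probes, of which the second spans at least 1 intron. They are shown because the upstream and downstream probes gave different values.
NFATC3 upstream, chr5:23669616-23669675: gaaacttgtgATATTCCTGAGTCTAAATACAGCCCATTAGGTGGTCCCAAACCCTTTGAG
NFATC3 upstream, chr5:23669626-23669685: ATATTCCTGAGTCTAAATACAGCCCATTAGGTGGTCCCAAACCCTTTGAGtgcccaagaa
NFATC3 downstream, chr5:23739356-23739415: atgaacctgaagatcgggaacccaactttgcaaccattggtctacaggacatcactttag
NFATC3 downstream, chr5:23739416-23771523: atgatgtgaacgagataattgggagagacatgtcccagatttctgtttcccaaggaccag
PPP3CB had 3 probes, STIM1 had 5 that overlap like the upstream probes of NFATC3, and PPP3R1 had 1. The PPP3R1 probe was named through a RefSeq accession that the design describes as a hypothetical protein. That assignment is doubtful: the values given for PPP3R1 are those of this probe, shown here for that reason, and may belong to another gene.
PPP3R1 (doubtful), chr2:117823504-117823563: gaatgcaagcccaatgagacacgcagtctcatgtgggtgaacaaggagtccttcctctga

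Values are log2 median spot signals minus the median of the array, so 0 is the middle of the array and 1 unit is a doubling. Differences (log2 FC) were tested with limma over all genes, and a gene was called differentially expressed (DE) at an adjusted p under 0.05. In every array between 51.4% and 62.3% of spots were well above background. NFATC3, RCAN1, PPP3CA and PPP3CB were well above background on all 24 arrays. In bulk PBMCs, fewer cells of a type and less RNA per cell cannot be told apart. Among markers of cell types, 11 of 14 T cell, 7 of 9 B cell and 8 of 13 monocyte genes were measured, and at T4 in mock-stimulated PBMCs 9, 7 and 7 of them were well above background on all 4 arrays.

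LPS moved none of the 6 genes past the test. None had an unadjusted p under 0.05 at T4 (0 of 6), and 0 of 6 were DE by limma, where 1.02% of all genes were DE. At T24, 0 of 6 were DE (2 had an unadjusted p under 0.05, PPP3CB and PPP3R1), where 1.23% of all genes were DE. The change of the LPS effect between T4 and T24 was DE for 0 of 6 genes (0 at an unadjusted p under 0.05), against 1.95% of all genes. The largest LPS difference by size was that of the PPP3R1 probe at T24, described with that probe below.

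PMA-Ionomycin changed a few of these genes at each time, at a share not far from that of all genes. At T4, 2 of 6 were DE, RCAN1 higher and PPP3CB lower, where 22.8% of all genes were DE. At T24, 2 of 6 were DE, RCAN1 higher and PPP3CA lower, where 33.6% of all genes were DE. The median log2 FC of the 6 genes was -0.38 at T4 and -0.16 at T24, beside 0.05 and 0.03 over all genes.

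**Figure D1:**
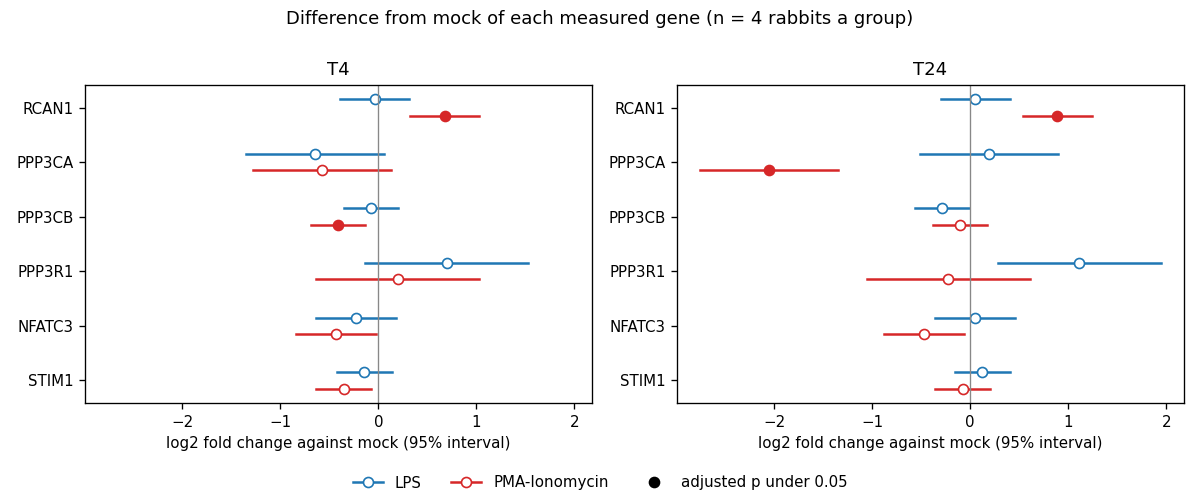
Log2 fold change against mock at T4 (left) and T24 (right) for the 6 measured genes, with a 95% interval from the limma SE on 18 degrees of freedom, for LPS (blue) and PMA-Ionomycin (red), n = 4 rabbits a group; filled points had an adjusted p under 0.05. RCAN1 lies to the right of 0 with PMA-Ionomycin at both times and PPP3CA far to the left at T24 (-2.05), while no LPS point is filled.

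RCAN1, the calcineurin inhibitor, rose with PMA-Ionomycin at both times. In mock-stimulated PBMCs at T4 its level was -0.07, 0.16, 0.07 and 0.46 in rabbits 1, 2, 4 and 5, and with PMA-Ionomycin it was 0.78, 0.42, 1.21 and 0.91. Each rabbit was higher with PMA-Ionomycin, although the PMA-Ionomycin array of rabbit 2 lay just under the mock array of rabbit 5, so the groups overlapped. The rise at T4 was 1.60-fold (log2 FC 0.68, SE 0.17, limma adjusted p = 0.00386). It lost the test without rabbit 1 (log2 FC 0.62, adjusted p = 0.053) or rabbit 4 (log2 FC 0.52, adjusted p = 0.0931). Within the 3 slides the difference was 0.36, 0.91 and 0.62 at T4 and 0.70, 0.503 and 1.38 at T24. Each of these values sets 1 or 2 PMA-Ionomycin arrays against 1 or 2 mock arrays of other rabbits, so differences between rabbits are mixed in.

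At T24 the levels of RCAN1 in mock-stimulated PBMCs were 0.97, 0.38, 0.68 and 0.94 in the same order, and with PMA-Ionomycin 1.504, 1.47, 1.60 and 1.93. All 4 PMA-Ionomycin arrays lay above all mock arrays. The rise was 1.85-fold (log2 FC 0.89, SE 0.17, adjusted p = 0.000159) and passed the test under each of the 17 alternatives. Its size at T4 and T24 did not differ past the test (interaction 0.21, 95% interval -0.29 to 0.71, adjusted p = 0.67).

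RCAN1 also rose with time alone. In mock-stimulated PBMCs the mean was 0.15 ± 0.22 (SD, n = 4) at T4 and 0.74 ± 0.27 at T24, a rise (log2 FC 0.59, SE 0.17, adjusted p = 0.0205) seen in 4 of 4 rabbits. It lost the test without rabbit 1 (0.43, adjusted p = 0.293) or rabbit 4 (0.58, adjusted p = 0.0925), and in a limma fit of the compared arrays alone (adjusted p = 0.0619). Beside this rise, 6 of 8 monocyte and 4 of 5 neutrophil markers were higher and 4 of 5 platelet markers lower at T24 in mock-stimulated PBMCs. Of all genes, 7.42% were higher and 5.13% lower, and the part of these cells was not tested. RCAN1 was the 1 gene of the 6 that was DE between the mock groups, where 12.5% of all genes were DE. With LPS its means, 0.12 ± 0.17 at T4 and 0.79 ± 0.20 at T24, lay within 0.06 of the mock means. In the order of its 6 group means, PMA-Ionomycin at T24 stood first at 1.63 ± 0.21 by a gap above the spread. PMA-Ionomycin at T4 (0.83 ± 0.33), LPS at T24 and mock at T24 followed, with gaps between these 3 below the spread between rabbits. Mock and LPS at T4 were last, under a gap of 0.59 that was above the spread.

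**Figure D2:**
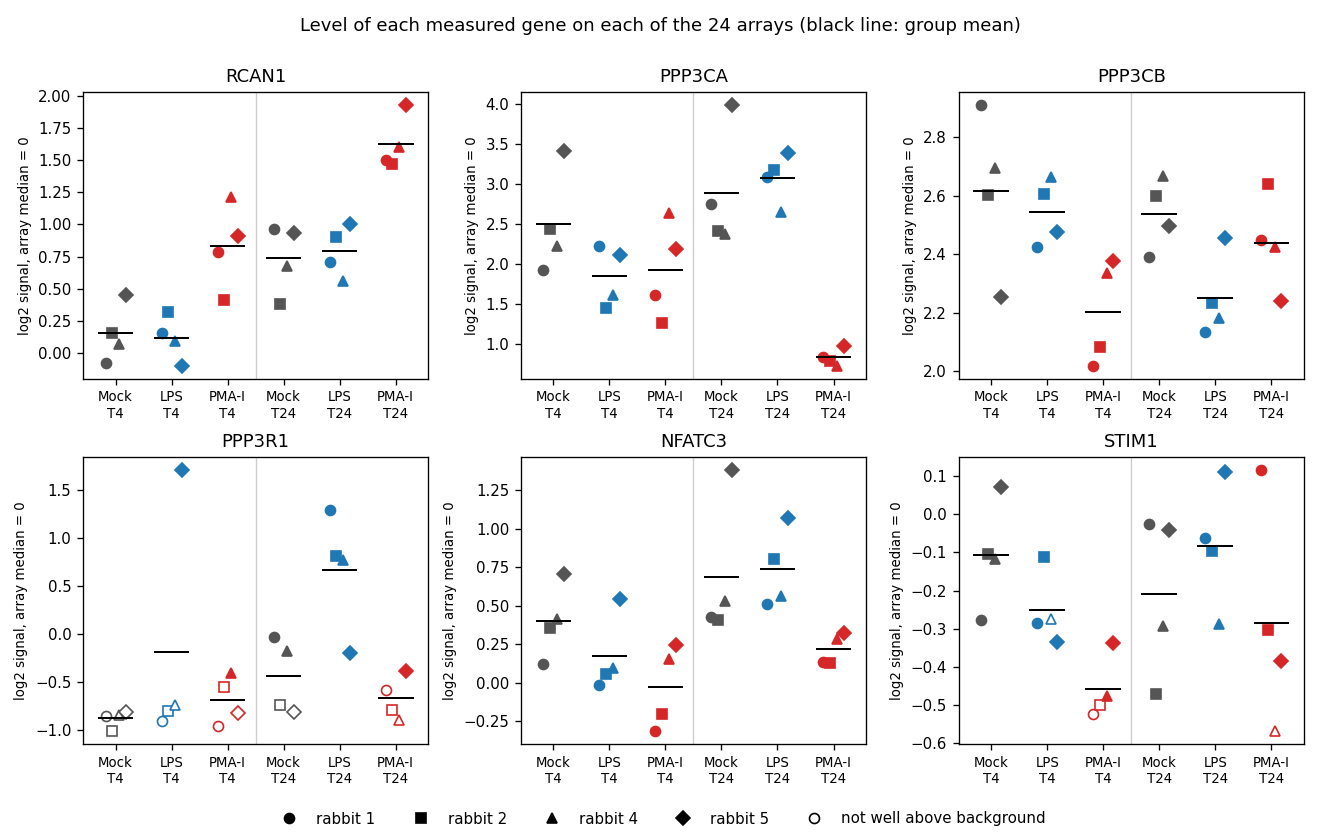
Log2 signal with the array median at 0 (y axis, its scale differs between panels) of each measured gene on each array of the 6 groups (x axis; PMA-I is PMA-Ionomycin); symbols mark the rabbits, open symbols arrays on which the gene was not well above background, and black lines the group means of 4 arrays. RCAN1 is highest and PPP3CA lowest in PMA-Ionomycin at T24, and the PPP3R1 probe was well above background on all 4 arrays in LPS at T24 alone.

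PPP3CA, the alpha form of the catalytic subunit of calcineurin, had the widest span of group means among the 6 genes (2.24 log2 units). At T24 its level in mock-stimulated PBMCs was 2.75, 2.41, 2.38 and 3.99 in rabbits 1, 2, 4 and 5, and with PMA-Ionomycin 0.84, 0.79, 0.73 and 0.98. The PMA-Ionomycin arrays were close together and far below every mock array. The fall (log2 FC -2.05, SE 0.34, 95% interval -2.75 to -1.34, adjusted p = 2.83e-05) passed the test under each of the 17 alternatives. Within the 3 slides it was -2.35, -1.96 and -1.56, values that again set 1 or 2 arrays against 1 or 2 of other rabbits.

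At T4 the levels of PPP3CA were 1.93, 2.43, 2.23 and 3.41 in mock-stimulated PBMCs and 1.61, 1.27, 2.65 and 2.18 with PMA-Ionomycin. The groups overlapped, and 3 of 4 rabbits were lower with PMA-Ionomycin. The difference did not pass the test (log2 FC -0.57, 95% interval -1.28 to 0.13, adjusted p = 0.281). The PMA-Ionomycin effect on PPP3CA changed between the times by -1.47 log2 units (SE 0.47, adjusted p = 0.0261), lower at T24 in 4 of 4 rabbits, and PPP3CA was the 1 gene of 6 with such an interaction, where 22.5% of all genes had one. The interaction lost the test without rabbit 1 (-1.43, adjusted p = 0.126) or rabbit 4 (-1.28, adjusted p = 0.136), and with the slide as a block (-1.35, adjusted p = 0.0579). It was also lost in a limma fit of the compared arrays alone (-1.47, adjusted p = 0.051).

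With LPS the mean of PPP3CA was 1.85 ± 0.37 at T4 and 3.08 ± 0.31 at T24, beside 2.502 ± 0.642 and 2.88 ± 0.76 in mock-stimulated PBMCs. Neither LPS difference passed the test, and the 95% interval was -1.35 to 0.06 at T4, and at T24 it was -0.51 to 0.90. In the order of the 6 group means, the single gap above the spread lay between PMA-Ionomycin at T24 (0.84 ± 0.11) and LPS at T4, the group above it.

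Markers of other cells moved beside the fall of PPP3CA. At T24 with PMA-Ionomycin, 7 of 8 measured monocyte, 5 of 7 B cell and 3 of 5 neutrophil markers were lower than in mock-stimulated PBMCs. No marker of these 3 lists was higher. Of all genes, 11.5% were lower and 22.1% higher in this comparison. In the same comparison 2 of 5 platelet markers and the 1 NK cell marker measured were higher, and 1 of 4 erythrocyte markers was lower. The mean level of the monocyte list ran from 3.98 to 4.91 on the mock arrays and from 1.77 to 2.19 on the PMA-Ionomycin arrays. The neutrophil list ran from 2.89 to 3.22 and from 1.600 to 1.66, and the B cell list from 3.47 to 5.13 and from 2.24 to 2.68. The mean level of the T cell list ran from 0.46 to 0.94 and from 0.56 to 0.71, with 1 of 11 markers higher and 3 lower. At T4, 5 of 7 B cell, 4 of 8 monocyte and 4 of 5 platelet markers were lower with PMA-Ionomycin, and none of these lists had a higher member. Also lower there were 1 of 5 neutrophil markers and the NK cell marker, and of 11 T cell markers 1 was higher and 1 lower. Of all genes, 9.33% were lower and 13.4% higher at T4. The part of these cells in the changes of PPP3CA, RCAN1 and the other genes was not tested.

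The genes whose levels over the 24 arrays were most like those of PPP3CA, among 6285 with a symbol that were well above background in at least 1 group, were PAN2 (Pearson r = 0.96), CLUAP1 (r = 0.94) and HERPUD2 (r = 0.94). At T24 the mean of PAN2 was 1.46 ± 0.64 in mock-stimulated PBMCs and -0.25 ± 0.17 with PMA-Ionomycin. The arrays share rabbits, slides and stimulation, so these values describe likeness over these arrays. Within the list, NFATC3 was most like PPP3CA (r = 0.76), while RCAN1 had an r of -0.27 with PPP3CA and -0.34 with PPP3CB.

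PPP3CB, the beta form of the catalytic subunit, fell a little with PMA-Ionomycin at T4. Its level was 2.91, 2.60, 2.70 and 2.25 in mock-stimulated PBMCs of rabbits 1, 2, 4 and 5, and 2.02, 2.08, 2.33 and 2.38 with PMA-Ionomycin. The groups overlapped through rabbit 5, which was higher with PMA-Ionomycin, while the other 3 rabbits were lower. The log2 FC of -0.41 (SE 0.13, adjusted p = 0.0227) lost the test without rabbit 1 (-0.25, adjusted p = 0.31), rabbit 2 (-0.38, adjusted p = 0.144), rabbit 4 (-0.43, adjusted p = 0.0963), or the PMA-Ionomycin array of rabbit 2 alone (-0.37, adjusted p = 0.0637). It was also lost in a limma fit of the compared arrays alone (adjusted p = 0.108) and with trend and robust eBayes (adjusted p = 0.0501).

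The probes of PPP3CB differed among themselves. The downstream probes, at chr18:14007023-14007082 and chr18:14007110-14007169, gave -0.55 (SE 0.15) and -0.52 (SE 0.18) at T4, both past the test over all probes. At T24 they gave 0.07 (SE 0.15) and -0.01 (SE 0.18). The upstream probe, which spans at least 1 intron at chr18:13988178-13994839, gave -0.17 (SE 0.15) at T4 and -0.36 (SE 0.15) at T24, neither past the test. For the gene as a whole the log2 FC at T24 was -0.10 (95% interval -0.37 to 0.17, adjusted p = 0.679). It did pass the test after quantile normalization, without background correction (-0.37, adjusted p = 0.0202) and with it (-0.33, adjusted p = 0.0296). With LPS the log2 FC of PPP3CB was -0.07 at T4 and -0.29 at T24, the latter lower in 4 of 4 rabbits (adjusted p = 0.411).

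**Figure D3:**
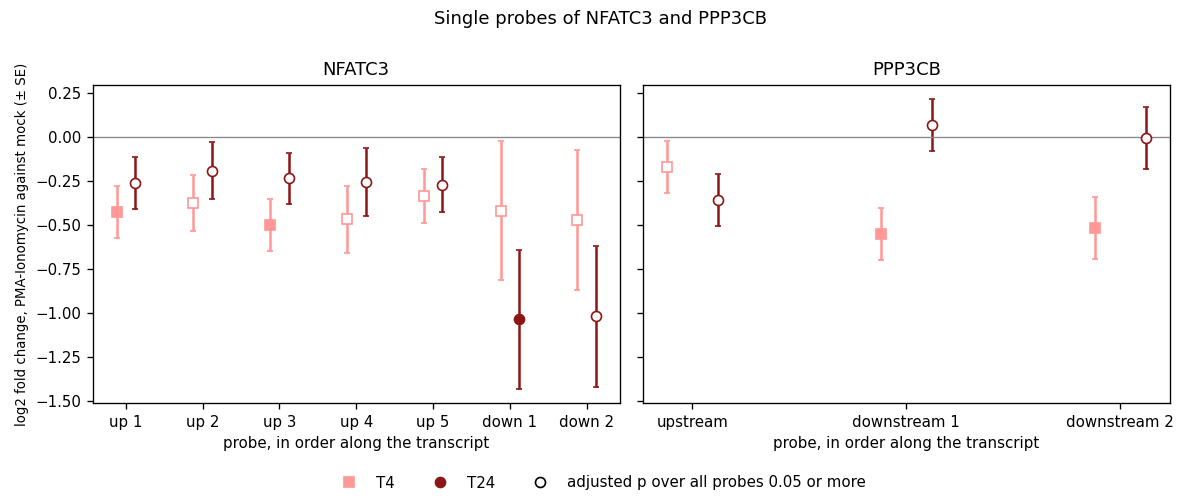
Log2 fold change of PMA-Ionomycin against mock (y axis, ± SE) for each probe of NFATC3 (left) and PPP3CB (right) in order along the transcript (x axis), at T4 (squares) and T24 (circles); open symbols did not pass the test over all probes. At T24 the downstream probes of NFATC3 lie near -1.0 and its upstream probes between -0.27 and -0.19.

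NFATC3, an NFAT transcription factor of T cells among other cells, was lower with PMA-Ionomycin in every rabbit at both times. At T4 it was 0.13, 0.35, 0.42 and 0.71 in mock-stimulated PBMCs of rabbits 1, 2, 4 and 5, and -0.31, -0.20, 0.16 and 0.25 with PMA-Ionomycin. The groups overlapped, with rabbit 5 highest and rabbit 1 lowest in both. The log2 FC of -0.43 (SE 0.19) did not pass the test (adjusted p = 0.131), but passed it with the rabbit as a block (SE 0.12, adjusted p = 0.0118), with the processed signal (-0.998, adjusted p = 0.0213) and without rabbit 5 (-0.42, adjusted p = 0.035).

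At T24 NFATC3 was 0.42, 0.41, 0.53 and 1.38 in mock-stimulated PBMCs and 0.14, 0.13, 0.29 and 0.32 with PMA-Ionomycin. All PMA-Ionomycin arrays lay below all mock arrays, by little in 3 rabbits and by 1.06 in rabbit 5. The log2 FC of -0.47 did not pass the test (SE 0.19, adjusted p = 0.0692) and passed it with the rabbit as a block (SE 0.12, adjusted p = 0.00418). It also passed with the processed signal (-1.01, adjusted p = 0.0139), the deposited table (-0.61, adjusted p = 0.0241) and dim probes left out (adjusted p = 0.0492). Under 12 of the 17 alternatives, among them the fit without rabbit 5, it did not pass. Over all 17, single probes included, the log2 FC ran from -1.04 to -0.27. The downstream probes gave -1.04 (SE 0.39, adjusted p over all probes 0.0447) and -1.02 (SE 0.40, adjusted p 0.0507), and the 5 upstream probes between -0.27 and -0.19, none past the test. The difference between upstream and downstream probes was not tested. At T4 the 5 upstream probes gave -0.501 to -0.34, of which 2 passed the test, and the downstream probes -0.42 and -0.47. With LPS the log2 FC of NFATC3 was -0.23 at T4 and 0.05 at T24, neither past the test.

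The probe assigned to PPP3R1, the regulatory B subunit of calcineurin, was dim and may not measure that gene. In mock-stimulated PBMCs at T4 it was well above background on none of 4 arrays, and at T24 on 2 of 4. In LPS at T24 it was well above background on all 4, with levels of 1.30, 0.82, 0.77 and -0.19 in rabbits 1, 2, 4 and 5, beside -0.03, -0.74, -0.17 and -0.81 in mock-stimulated PBMCs. The groups overlapped only through rabbit 5, and each rabbit was higher with LPS. The log2 FC of 1.11 (95% interval 0.28 to 1.94) did not pass the test (adjusted p = 0.231), and passed it without rabbit 5 (1.28, adjusted p = 0.000997) and with array weights (1.17, adjusted p = 0.0375). At T4 the LPS array of rabbit 5 alone was above background, at 1.71, while those of the other rabbits lay between -0.90 and -0.73. With PMA-Ionomycin 1 of 4 arrays was well above background at each time, and the difference from mock did not pass the test at T4 (adjusted p = 0.859) or T24 (adjusted p = 0.788). Among the 3 genes most like this probe over the 24 arrays were IRX6 (r = 0.74) and RNF183 (r = 0.73).

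STIM1, the sensor of calcium in the endoplasmic reticulum, was well above background on 2 to 4 arrays of each group. At T4 it was -0.28, -0.10, -0.12 and 0.07 in mock-stimulated PBMCs of rabbits 1, 2, 4 and 5, and -0.52, -0.50, -0.48 and -0.34 with PMA-Ionomycin, where most of its probes were well above background on 2 of 4 arrays. The groups did not overlap. The log2 FC of -0.35 (SE 0.13) missed the test (adjusted p = 0.0621), and was past it under 7 of the 17 alternatives, among them quantile normalization (-0.39, adjusted p = 0.0237) and the processed signal (-1.16, adjusted p = 0.00363). At T24 the log2 FC was -0.08 (95% interval -0.36 to 0.20), with 2 rabbits higher and 2 lower. Of its 5 overlapping probes, 4 gave -0.41 to -0.15 there and 1 gave 0.46, with an SD of 1.07 over the PMA-Ionomycin arrays, and the value of the gene is the mean of all 5. LPS gave -0.14 at T4 and 0.12 at T24.

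Set against LPS in place of mock, PMA-Ionomycin gave 1 DE gene of 6 at T4 (26.7% of all genes) and 4 of 6 at T24 (36.1% of all genes). These comparisons share the PMA-Ionomycin arrays with those against mock. At T4 the DE gene was RCAN1 (log2 FC 0.71, adjusted p = 0.00212), which lost the test without rabbit 4 (0.58, adjusted p = 0.0542). At T24 RCAN1 was higher by 0.83 (adjusted p = 0.00028) and PPP3CA lower by 2.24 log2 units (log2 FC -2.24, SE 0.34, adjusted p = 7.44e-06), each passing under all 17 alternatives. The PPP3R1 probe was lower with PMA-Ionomycin at T24 (log2 FC -1.34, adjusted p = 0.00902), a difference that rests on a group well above background on 1 of 4 arrays, and without this doubtful probe 3 of 5 genes were DE. It lost the test without rabbit 1 (-1.16), 2 (-1.25) or 4 (-1.23). NFATC3 was lower at T24 (log2 FC -0.52, adjusted p = 0.039) and lost the test without rabbit 1 (-0.57), 2 (-0.47) or 4 (-0.60) and with the slide as a block (-0.51, adjusted p = 0.0565). For NFATC3 in this comparison the downstream probes gave -1.48 and -1.45 and the upstream ones -0.25 to -0.04, a difference that was not tested. In PMA-Ionomycin against LPS at T24, 6 of 8 monocyte, 4 of 7 B cell and 3 of 5 neutrophil markers were lower and none higher (12.5% of all genes lower). Of 11 T cell markers 2 were higher and 2 lower, and the NK cell marker and 1 of 5 platelet markers were higher. The part of these cells was not tested.

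The other genes of the pathway were taken from 4 lists, of which 42 genes were measured. With LPS, 0 of 42 were DE by limma at T4 (of which 12 had an unadjusted p under 0.05) and 0 of 42 at T24 (of which 6 had an unadjusted p under 0.05). The lowest adjusted p among the 42 with LPS was that of the cytokine gene TNF at T24 (log2 FC 2.498, SE 0.64, adjusted p = 0.0539), given here after its value was seen. The LPS effect changed with time for 1 of 42, ATP2A2 (1.52, adjusted p = 0.0243). The shares of all genes DE in these LPS comparisons are given above (1.02%, 1.23% and 1.95%). With PMA-Ionomycin, 20 of 42 were DE at T4 (22.8% of all genes) and 25 of 42 at T24 (33.6% of all genes), and leaving out the PMA-Ionomycin array of rabbit 2 at T4 gave 19 and 24.

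Genes known as NFAT targets in lymphocytes rose with PMA-Ionomycin, 12 of 13 at T4 and 10 of 13 at T24, and none fell, where 13.4% of all genes were higher at T4 and 22.1% at T24. This list was chosen with earlier results of these data known, so the counts describe its genes and are no test of NFAT activity. At T4 the median log2 FC of the list was 2.07, and at T24 it was 1.59. The T cell and myeloid growth factor gene CSF2 rose 235-fold at T4, from 0.53 ± 0.51 to 8.41 ± 0.45 (adjusted p = 5.83e-12). IL4, a cytokine of Th2 cells, rose 111-fold, from 1.58 ± 0.62 to 8.37 ± 0.11 (adjusted p = 1.13e-11). IL2, the growth factor of T cells, was at 4.55 ± 0.33 with PMA-Ionomycin (adjusted p = 1.75e-16 against mock). Any of its probes was well above background on 1 of the 4 mock arrays, so no fold is given.

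The lowest fitted log2 FC among the DE targets at T4 were those of CD40LG, the CD40 ligand of helper T cells, IFNG and TNFRSF9, and they have no order where mock was not above background. CD40LG was not well above background on any mock array at T4 and was at least 1.83-fold higher with PMA-Ionomycin (adjusted p = 9.25e-06). IFNG, interferon gamma, had a fitted log2 FC of 1.19, with no more than 1 of its 2 probes well above background on each mock array at either time. TNFRSF9, a costimulatory receptor of T cells, had a log2 FC of 1.60. TNF was the target not DE at T4 (0.90, SE 0.64, adjusted p = 0.409).

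At T24 CSF2 was higher by 5.92 log2 units, with 1 of 4 mock arrays well above background, and IL4 by 4.33. IL2 was not above background on any mock array at T24 and was at least 20.8-fold higher with PMA-Ionomycin (adjusted p = 1.45e-14). Among the DE targets with low fitted log2 FC were the transcription factor genes EGR2 (0.51) and IRF4 (0.57) and IFNG (1.26, a fitted value with the same limit as at T4). CBLB (0.05) and NR4A1 (0.21) did not pass the test, and CD40LG was not well above background in either group. The PMA-Ionomycin effect was lower at T24 than at T4 for 9 of the 13 targets by the interaction test, where 8.17% of all genes were, with IL4 at -2.46 (adjusted p = 0.00164) and CSF2 at -1.96 (adjusted p = 0.0206). For IL2, CD40LG and CSF2 the size rests on mock arrays at or near background. None of the 13 had an effect that grew past the test.

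**Figure D4:**
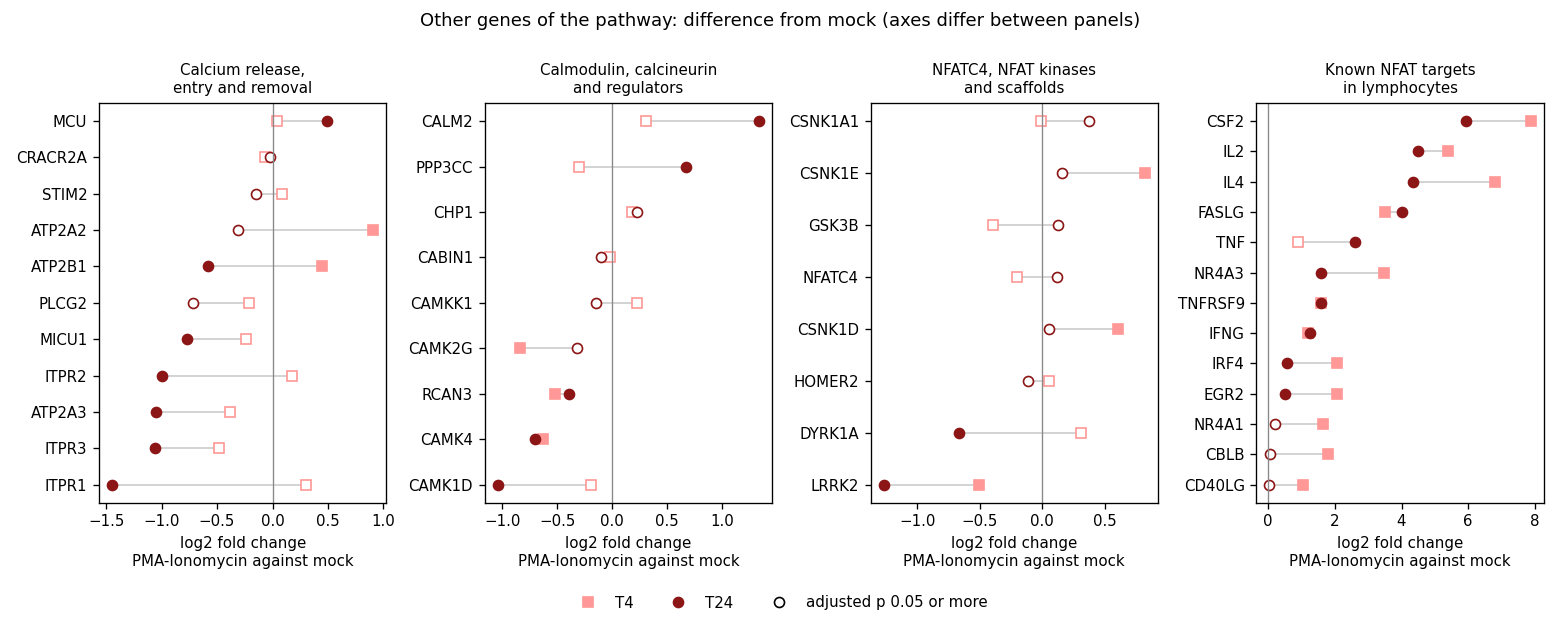
Log2 fold change of PMA-Ionomycin against mock (x axis, which differs between panels) for measured genes of the pathway in 4 lists (rows; 1 gene of the second list is not shown), at T4 (squares) and T24 (circles), joined by a grey line (points of genes not above background in a group, such as IL2 and CD40LG in mock, do not measure the size); open symbols had an adjusted p of 0.05 or more. In the right-hand panel 12 of 13 NFAT target genes are filled at T4 and lie above 1, and in the left-hand panel 6 of 11 calcium genes lie below 0 and are filled at T24.

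Of the genes of calcium release, entry and removal, 2 of 11 were higher at T4, where 13.4% of all genes were, ATP2A2, a pump that refills the endoplasmic reticulum (log2 FC 0.91, adjusted p = 0.00711), and ATP2B1, a pump of the plasma membrane (0.44, adjusted p = 0.027), and none was lower. At T24, 6 of 11 were lower, where 11.5% of all genes were, and 1 was higher. The inositol trisphosphate receptor genes ITPR1 (log2 FC -1.45, adjusted p = 1.64e-05) and ITPR3 (-1.06, adjusted p = 0.0118), whose products release calcium from the store, and the pump gene ATP2A3 (-1.05, adjusted p = 0.000525) fell most. MCU, the channel of the mitochondrial calcium uniporter, was higher by 0.50 (adjusted p = 0.00469). The level of ITPR1 was 2.29 ± 0.18 in mock-stimulated PBMCs at T24 and 0.84 ± 0.27 with PMA-Ionomycin. The interaction with time was DE and negative for 4 of the 11, where it was for 8.17% of all genes, ITPR1 (-1.75), ATP2A2 (-1.22), ITPR2 (-1.17) and ATP2B1 (-1.03), genes named here because their count was small. The falls at T24 stood beside the same monocyte, neutrophil and B cell markers as PPP3CA, whose part was not tested.

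Among calmodulin, calcineurin and their regulators, 3 of 10 were lower (9.33% of all genes) and none higher at T4, CAMK2G (log2 FC -0.83, adjusted p = 0.000341), CAMK4 (-0.63, adjusted p = 0.0138) and RCAN3 (-0.52, adjusted p = 0.00434). With PMA-Ionomycin at T4, CAMK4 was well above background on 1 of 4 arrays and RCAN3, by most of its probes, on 0 of 4. CAMK2G and CAMK4 encode kinases that calmodulin activates, and RCAN3 is of the same family of calcineurin regulators as RCAN1. At T24, 3 of 10 were higher (22.1% of all genes) and 3 lower (11.5%). The calmodulin gene CALM2 rose (1.34, adjusted p = 0.000327), as did PPP3CC, the gamma form of the catalytic subunit of calcineurin (0.67, adjusted p = 0.0122). CAMK1D (-1.04), CAMK4 and RCAN3 (-0.40) were lower, with CAMK4 not well above background on any PMA-Ionomycin array and at least 1.60-fold lower. PPP3CC, which rose where PPP3CA fell, was at 0.36 ± 0.40 in mock-stimulated PBMCs at T24 and 1.04 ± 0.15 with PMA-Ionomycin. The PPP3CC interaction with time was 0.97 (adjusted p = 0.0163), opposite in sign to that of PPP3CA.

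Of NFATC4 and the kinases and scaffolds that act on NFAT, 2 of 8 were higher and 1 lower at T4, where 13.4% of all genes were higher and 9.33% lower. The casein kinase 1 genes CSNK1E (log2 FC 0.82, adjusted p = 0.000684) and CSNK1D (0.60, adjusted p = 0.0321) were higher, and LRRK2, which encodes a kinase described as an inhibitor of NFAT, was lower (-0.50, adjusted p = 0.0271). At T24, 2 of 8 were lower, where 11.5% of all genes were, and none higher, LRRK2 (-1.27, adjusted p = 1.05e-06, with 1 of 4 PMA-Ionomycin arrays well above background) and DYRK1A (-0.67, adjusted p = 8.09e-05), a kinase that phosphorylates NFAT. NFATC4 did not pass the test at T4 (-0.20) or T24 (0.12).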

How the data were processed

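RNA from 24 PBMC cultures was hybridised, with Cy3 as the label, to a rabbit Agilent array. The authors deposited the output of Agilent Feature Extraction 10.7.3.1, in which the median signal is an unscaled spot intensity. A log2 table was deposited too, whose values are the log2 median signal with the mean of every spot on that array subtracted. The study's methods were followed: log2 median signal, centring on the median of the 61657 non-control spots, and averaging of probes per gene. Spots marked as outliers were left out. Genes were assigned to probes from the RefSeq table (mOryCun1.1), the gene names of the files and the study's list of added genes, giving 28892 genes from 42089 probes, of which 9510 have a symbol. No genome was used, and positions are those of the design on oryCun2.

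The means of the 6 groups were fitted together with limma 3.58.1 (lmFit, eBayes) in R 4.3.3, with Benjamini-Hochberg adjustment over all genes. Intervals are at 95%, from the limma SE and a t distribution on the 18 residual degrees of freedom. The p-values also use the degrees of freedom that eBayes adds, so the intervals are a little wide for them. Figures were drawn in Python 3.11.15 with matplotlib 3.10.9. On a given array a gene was taken as well above background if the scanner software had marked most of its probes so. Where a group had no array with any probe of a gene above background, a bound is given: the mean of the brighter group against, per array, the higher of the gene's own signal and the lowest signal well above background.

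The groups hold the same 4 rabbits. Residuals of the same rabbit in different groups had a median correlation of 0.23 over 60 pairs, beside -0.08 over 180 pairs of different rabbits, so the rabbit was also fitted as a block, and a blocked value is printed where it changes a call. The number of arrays limits the precision.

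Members and lists were chosen with earlier results of these data known. The text names the listed genes with a probe, in each PMA-Ionomycin comparison with mock up to 3 of the highest and 3 of the lowest log2 FC among the DE genes of each pathway list, and the 3 genes most like the 2 members with the widest range of group means. Of the genes that this rule names, 2 are not reported here. Genes not DE or named for a small count were added after their values were seen. Each fit was repeated with quantile normalization, normexp (offset 50) and quantile normalization, the 75th percentile of the processed signal as the scale, the deposited table, outlier spots kept, dim probes left out, a fit of the compared arrays alone, rabbit or slide as a block, array weights, trend and robust eBayes, single probes and leaving out each rabbit. Leaving out 1 PMA-Ionomycin array that stood apart (rabbit 2 at T4), leaving out the PPP3CA or the PPP3R1 probe, values within slides and the probes of PPP3CB apart were added after the data had been seen.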

Additional observations from a re-analysis of the deposited data

Results flagged for a closer look

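In mock-stimulated PBMCs at T24, the NFATC3 level of rabbit 5 (1.38) stood apart from the other 3 (0.41 to 0.53), with a gap of 0.872057 of the range of the group. The PPP3R1 probe on the LPS array of rabbit 5 at T4 (1.71, the others between -0.90 and -0.73) stood apart by 0.935336 of the range. Such gaps, by Dixon's ratio, were searched in 36 groups of 4 arrays, and chance gives about 1 in 20. The PMA-Ionomycin effect on PPP3CA differed between T4 and T24 by -1.47354 log2 units (limma, adjusted p = 0.0261).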

How the results depend on the processing

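Of 918 values of the 6 genes refitted under 17 alternatives, 861 kept their side of the test (32 of these, not DE in either fit, took the other sign), 23 lost the test, 34 gained it and 0 reversed. For PMA-Ionomycin against mock, the number of DE genes of the 6 at T4 (2) was 4 with the processed signal or single probes. It was 3 with quantile normalization, normexp, the deposited table, dim probes left out or the slide block. It was 1 with the compared arrays alone or with trend and robust eBayes, and 0 to 3 without 1 rabbit or array. At T24 (2) it was 3 with quantile normalization, the processed signal, normexp, the deposited table, dim probes left out or single probes, and 2 without any 1 rabbit. The interaction of PMA-Ionomycin and time (1) gave 0 with the compared arrays alone or the slide block, 2 with single probes, and 0 to 2 without 1 rabbit. PMA-Ionomycin against LPS at T4 (1) gave 2 with quantile normalization, the processed signal, normexp, the deposited table, dim probes left out, the slide block or single probes, and 0 to 2 without 1 rabbit, and at T24 (4) 6 with single probes, 5 with the processed signal or the deposited table, 3 with the slide block, and 2 to 4 without 1 rabbit. Mock at T24 against T4 (1) gave 0 with the compared arrays alone and 0 to 1 without 1 rabbit. LPS at T24 (0) gave 1 with array weights and 0 to 1 without 1 rabbit. The cause of these changes was not tested. With the rabbit as a block, which pairs the arrays of a rabbit, the counts were 3 at T4 and 3 at T24 for PMA-Ionomycin against mock, NFATC3 being the gene gained, no other call of the 6 genes changed, and 20 and 25 genes of the pathway lists were DE. Without the PPP3CA probe, 2 of 5 and 1 of 5 genes were DE with PMA-Ionomycin at T4 and T24, and without the PPP3R1 probe 2 of 5 and 2 of 5. The processed signal moved the median log2 FC of all genes to -0.16 at T4 and -0.26 at T24 (0.05 and 0.03 otherwise), and the split of DE genes at T24 from 6393 higher and 3320 lower to 4680 and 5428. Under it PPP3CA and RCAN1 kept their direction and calls at T24. PPP3R1 and STIM1 were not above background on every array, which limits their fold changes.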
